A study of Mus musculus with 15 samples.

Results

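Among the 17271 genes measured in mouse mammary tumours, 7 genes of antigen presentation by class II molecules of the major histocompatibility complex (MHC) were followed: H2-Aa, H2-Ab1, H2-Eb1, H2-DMa, H2-DMb1, Cd74 and Ciita. They were taken by symbol from the table of gene values, and all 7 were found. The values came from mRNA sequencing of bulk tumour RNA in 15 libraries, each from a p53-null mammary tumour of a BALB/c mouse, so that no library had p53 and the deletion itself was not compared. The tumours belonged to 4 models: 2151R (4 libraries, titled 2151R-5310, 2151R-53ca, 2151R-NT2 and 2151R-NT), T11 (1 library), 2225L (2 libraries) and 2208L (8 libraries). Within 2208L, 4 libraries were titled PBS, 3 were titled 3day nt and 1 had the prefix ROSEN, as did 1 of the 2 libraries of 2225L. The meanings of the tags after 2151R and of nt and ROSEN, the age of the mice, and whether the libraries of a group came from separate mice were not given in the sources used here. P-values therefore measure the spread between these libraries, which may in part be technical. Library numbers in the titles ran in a separate range for each of 2151R, 2208L PBS and 2208L 3day nt, so each of these groups and its library range cannot be told apart.

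MHC class II molecules are pairs of an alpha and a beta chain that carry peptides from endocytosed proteins to the cell surface, where CD4 T cells read them. H2-Aa and H2-Ab1 encode the chains of the I-A molecule and H2-Eb1 the beta chain of I-E. Cd74, the invariant chain, occupies the peptide groove during transport, and H2-DMa and H2-DMb1 encode the chains of H2-M, which helps to exchange the remnant of Cd74 for antigen peptides. Ciita, the class II transactivator, does not bind DNA by itself. It is recruited by the RFX, CREB and NF-Y factors that sit on the X and Y boxes of class II promoters. Dendritic cells, B cells and macrophages are the best known class II-positive cells, and interferon gamma can induce Ciita and class II genes in many other cells, tumour cells included.

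In the GENCODE M21 annotation of GRCm38 (mm10), the 5 genes with an H2 symbol lie within the MHC on chromosome 17, in the order H2-DMa (chr17:34119541-34139101), H2-DMb1 (chr17:34153072-34160230), H2-Ab1 (chr17:34257689-34269419), H2-Aa (chr17:34282744-34287823) and H2-Eb1 (chr17:34305867-34316674). H2-Aa is on the minus strand and the other 4 are on the plus strand. Ciita lies on chromosome 16 (chr16:10480059-10528418, plus strand) and Cd74 lies on yet another chromosome.

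The promoter stretches below are shown because the RFX and NF-Y sites they can hold are the elements through which Ciita acts on class II genes. Both were read from RefSeq promoter windows (GRCm38.p6), which run from 250 bases before to 50 bases after each gene's start. Capitals mark GNAACT, a core of the X box, and ATTGG, the core of the Y box. Both stretches lie upstream of the annotated gene, run 5′ to 3′ on the strand of the gene, and include 10 bases on each side of the motifs.
H2-Aa (chr17:34287857-34287914, minus strand): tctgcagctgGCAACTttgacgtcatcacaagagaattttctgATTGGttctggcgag
H2-Eb1 (chr17:34305766-34305822, plus strand): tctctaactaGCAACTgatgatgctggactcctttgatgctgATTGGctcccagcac
GNAACT followed by ATTGG after 20 to 45 bases, on either strand, was found in 3 of the 4 members with a RefSeq window (H2-Aa, H2-Eb1 and H2-DMb1) and in 1.2% of all 32851 windows of 300 bases. The motifs do not overlap each other, and 27 bases separate them in H2-Aa and 26 in H2-Eb1. The H2-DMb1 match falls inside an exon of the annotation and is not printed. H2-DMa, with 2 windows, held no such pair of motifs in these windows. H2-Ab1, Cd74 and Ciita had no entry in the table. The motifs and the gap were chosen after these sequences had been read, and a match is a description of letters, not of binding.

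Each value below is the authors' log2 value of a gene, centred on a median of that gene, so that 1 unit is a 2-fold difference. Such values compare 1 gene across libraries and cannot rank the genes by abundance. Medians over all genes lay between -0.29 and 0.10 in the 15 libraries. The mean of 10 epithelial genes, each centred on its mean over the libraries, was 2.15 to 2.76 in 2208L, 2.46 to 2.49 in 2225L, -4.49 to -3.40 in 2151R and -8.02 in T11, so the markers of the labelled mammary epithelium were lower in the last 2 models. Skeletal muscle genes stood high in 3 libraries (2151R replicate 3 and 2208L replicates 6 and 8, the last 2 titled 3day nt), and results were recomputed without them.

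**Figure D1:**
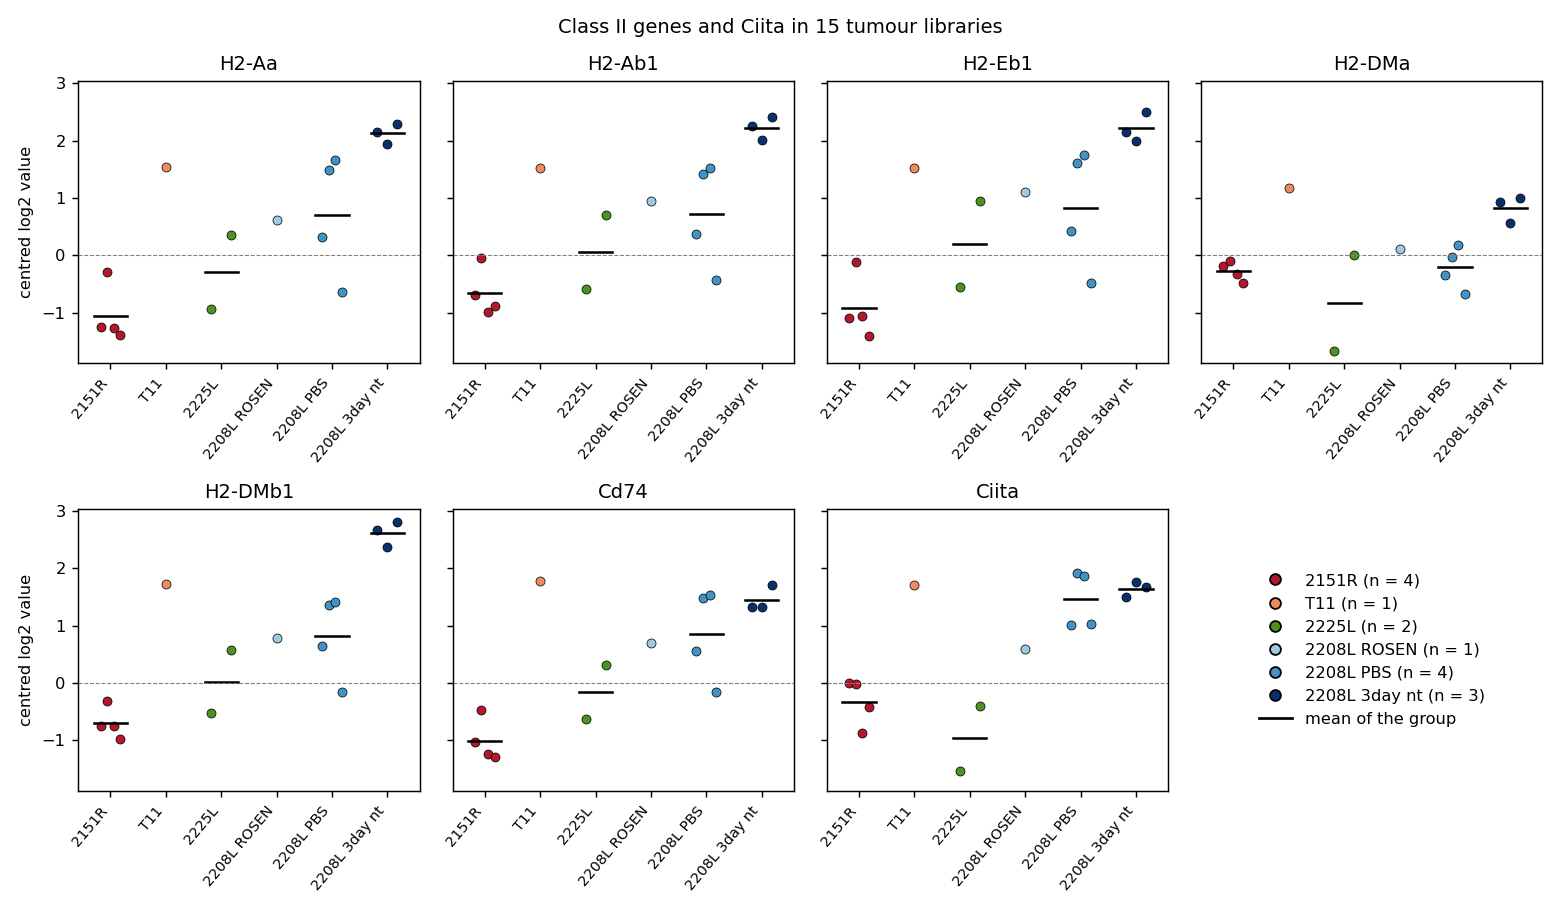
Centred log2 value (y axis) of each of the 7 genes in the 15 libraries, by group (x axis); points are libraries and lines are group means. The 4 libraries of 2151R lay below 0 for the 6 class II genes, and the 3 libraries of 2208L titled 3day nt lay above 0 for all 7 genes.

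The class II genes and Ciita were lower in 2151R than in 2208L. By limma with Benjamini-Hochberg adjustment over all genes (adjusted p under 0.05), 6 of 7 genes were lower in 2151R and none was higher, where 22.7% of all 17271 genes were lower, 26.1% were higher and 48.8% differed in either direction. The members' median difference was -2.07, and that of all genes was 0.10. The libraries of the 2 models did not overlap for 3 of 7 genes (H2-DMb1, Cd74 and Ciita), against 38.8% of all genes. In bulk tumours, fewer cells of a type and less RNA per cell cannot be told apart.

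The chains of I-A and I-E moved together. H2-Aa stood at -1.24, -0.29, -1.27 and -1.39 in replicates 1 to 4 of 2151R. In 2208L, H2-Aa ranged from -0.63 through a median of 1.57 to 2.29. A single library of 2208L, replicate 5, titled PBS, lay among those of 2151R, and the other 7 lay above all of them. The H2-Aa difference was -2.28 ± 0.52 (SE), or 4.85-fold lower in 2151R (limma adjusted p = 0.00253). The exact two-sided permutation test gave p = 0.00808 for H2-Aa, where the smallest possible value was 0.00404.

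H2-Ab1, the partner chain of H2-Aa, stood at -0.69, -0.04, -0.98 and -0.88 in 2151R. In 2208L it ranged from -0.43 through a median of 1.47 to 2.40. Again the lowest library of 2208L lay within the range of 2151R, and the difference was -1.96 ± 0.49 (SE), or 3.89-fold (limma adjusted p = 0.00473).

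H2-Eb1 stood at -1.09, -0.12, -1.05 and -1.40 in 2151R. Its lowest, median and highest values in 2208L were -0.49, 1.68 and 2.49. Replicate 2 of 2151R was the highest of its model for all 3 chains, and the H2-Eb1 difference was -2.29 ± 0.51 (SE), or 4.91-fold lower in 2151R (limma adjusted p = 0.00231).

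Cd74, which chaperones all these chains, separated the models without overlap. It stood at -1.03, -0.47, -1.23 and -1.29 in 2151R and ranged from -0.15 through a median of 1.33 to 1.70 in 2208L. The difference was -2.07 ± 0.34 (SE), or 4.19-fold lower in 2151R (limma adjusted p = 0.0002). The exact permutation test for Cd74 gave the smallest possible p of 0.00404.

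The chains of H2-M behaved differently from each other. H2-DMb1, the beta chain, stood at -0.75, -0.31, -0.75 and -0.97 in 2151R and ranged from -0.16 through a median of 1.39 to 2.81 in 2208L. Every library of 2151R lay below every library of 2208L, and the difference was -2.19 ± 0.51 (SE), or 4.55-fold (limma adjusted p = 0.00296). H2-DMa, the alpha chain, stood at -0.18, -0.10, -0.33 and -0.48 in 2151R. In 2208L its lowest, median and highest values were -0.67, 0.15 and 0.99. The 2 models overlapped widely for H2-DMa, and its difference of -0.49 ± 0.34 (SE) did not pass (limma adjusted p = 0.254). Of the 31-base words in the H2-DMb1 transcripts, 31.4% also occur in H2-DMb2, a neighbouring beta chain gene, so the 2 genes can share reads and the H2-DMb1 value is uncertain to that extent. The share was at most 1.41% for the other 6 genes.

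Ciita, the activator, stood at 0.00, -0.01, -0.87 and -0.41 in 2151R. Its lowest, median and highest values in 2208L were 0.60, 1.59 and 1.92. No library of the 2 models overlapped for Ciita, and the difference was -1.74 ± 0.30 (SE), or 3.35-fold lower in 2151R (limma adjusted p = 0.000297). Replicates 1 and 2 of 2151R had about the same Ciita value, although their H2-Aa values differed by nearly 1 unit.

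All 6 calls between 2151R and 2208L held under every alternative run. The size depended on which libraries of 2208L entered: for H2-Aa the difference was -1.76 against PBS alone and -3.18 against 3day nt alone. For Ciita it was -1.78 and -1.97 against the same groups. For H2-DMa, 2151R minus PBS was -0.06 (limma adjusted p = 0.884) and 2151R minus 3day nt was -1.10 (limma adjusted p = 0.0169).

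**Figure D2:**
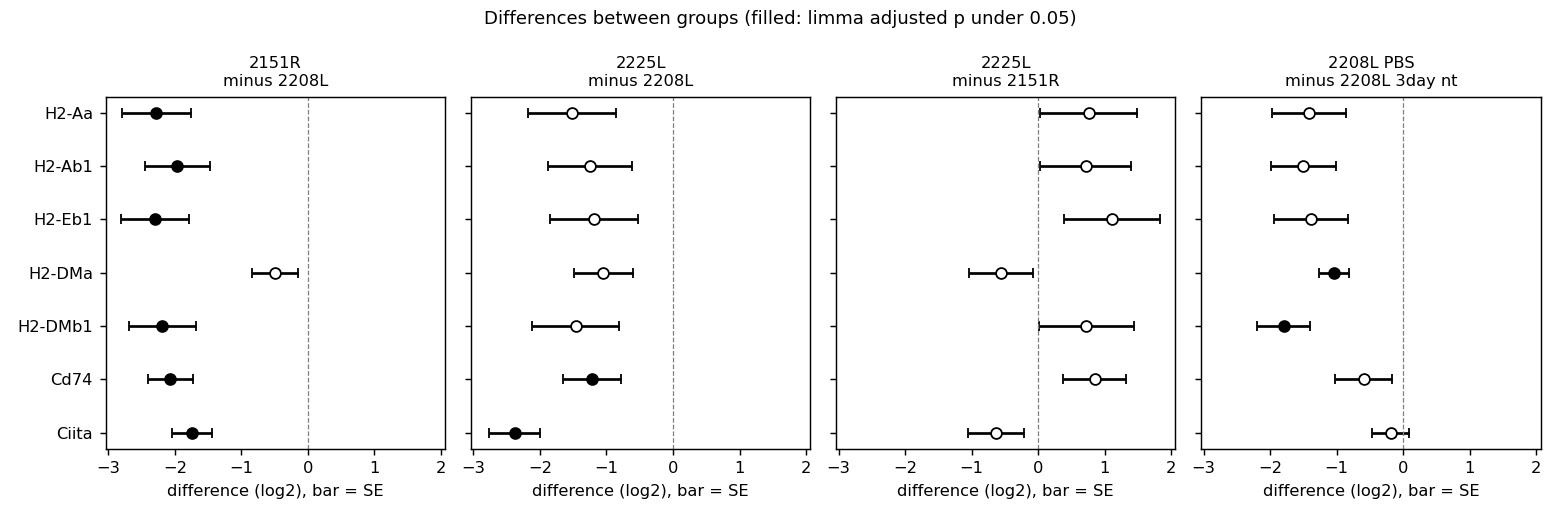
Difference in mean log2 value (x axis, bars are SE) for the 7 genes in 4 comparisons; filled points passed limma's adjusted p threshold of 0.05. In the comparison of 2151R with 2208L, 6 of 7 points are filled and H2-DMa is open at -0.49.

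T11 carried high class II values in its 1 library, so no test was possible. H2-Aa, H2-Ab1 and H2-Eb1 stood at 1.53, 1.53 and 1.52. Cd74 stood at 1.77, H2-DMa at 1.17, H2-DMb1 at 1.72 and Ciita at 1.71. T11 lay above every library of 2151R and of 2225L for 7 of 7 genes, where 39.9% of all genes lay above the range of 2151R and 45.5% above that of 2225L. Cd74 was 6.87-fold and Ciita 4.1-fold above the mean of 2151R, the other model with low epithelial markers. Compared with 2208L, T11 lay within the range for 5 of 7 genes and above it for H2-DMa and Cd74, and 35.8% of all genes lay above that range.

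In 2225L, Ciita was lower than in 2208L, while the number of class II genes that passed depended on the libraries of 2208L. Ciita stood at -1.53 in replicate 1 and -0.39 in replicate 2, both below the lowest library of 2208L. Its difference was -2.38 ± 0.38 (SE), or 5.2-fold lower in 2225L (limma adjusted p = 0.000443), and this call held under every alternative run. By limma, 2 of 7 genes were lower in 2225L (Ciita and Cd74), none was higher, where 17.3% of all genes were lower, 15.6% higher and 32.9% differed in either direction. The count was 6 of 7 without 2208L replicate 5, 7 of 7 against 3day nt alone and 1 of 7 against PBS alone. The libraries did not overlap for 1 of 7 genes, Ciita, against 31.7% of all genes.

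The 2 libraries of 2225L stood well apart. H2-Aa was at -0.94 and 0.36, H2-Ab1 at -0.58 and 0.71, and H2-Eb1 at -0.55 and 0.94 in replicates 1 and 2. H2-DMa was at -1.66 and 0.00, H2-DMb1 at -0.53 and 0.58, and Cd74 at -0.62 and 0.31. Replicate 2, whose title has the prefix ROSEN, was the higher for all 7 genes. The differences from 2208L that did not pass were -1.52 ± 0.67 (SE) for H2-Aa, -1.25 ± 0.63 for H2-Ab1, -1.19 ± 0.66 for H2-Eb1, -1.05 ± 0.44 for H2-DMa and -1.46 ± 0.65 for H2-DMb1. Cd74 differed by -1.22 ± 0.43 (SE; limma adjusted p = 0.0458), and its call was lost with sample weights (adjusted p = 0.23), with the library prefix in the limma fit (adjusted p = 0.0693) and without 2225L replicate 1 (-0.75, adjusted p = 0.343). It was also lost without the muscle-rich libraries (limma adjusted p = 0.0988), against PBS alone (0.089) and without any 1 of 2208L replicates 3, 4, 6, 7 and 8 (0.0617 to 0.0695).

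Between 2225L and 2151R, none of the 7 genes passed limma's threshold and none had an unadjusted p under 0.05, where 48.6% of all genes passed. The members' median difference was 0.72, and that of all genes was -0.10. H2-Eb1 was 1.11 ± 0.72 (SE) and Cd74 0.85 ± 0.47 (SE) above 2151R, while Ciita differed by -0.64 ± 0.42 (SE) and H2-DMa differed by -0.56 ± 0.49 (SE). The groups overlapped for 7 of 7 genes, and 62.4% of all genes did not overlap. With 2 libraries against 4 the exact permutation test could not go below 0.133.

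Within 2208L, the libraries titled PBS had lower values than those titled 3day nt for the class II chains, and Ciita differed little. H2-DMa stood at -0.34, -0.03, 0.19 and -0.67 in replicates 2 to 5, titled PBS, and at 0.93, 0.57 and 0.99 in replicates 6 to 8, titled 3day nt. H2-DMb1 stood at 0.65, 1.37, 1.42 and -0.16 in PBS and at 2.67, 2.37 and 2.81 in 3day nt. The groups did not overlap for either chain of H2-M. By limma, 2 of 7 genes were lower in PBS and none was higher, where 16.5% of all genes were lower, 17.4% were higher and 34.0% differed in either direction. These were H2-DMa, at -1.04 ± 0.23 (SE; limma adjusted p = 0.0165), and H2-DMb1, at -1.80 ± 0.40 (SE; limma adjusted p = 0.0165). Both calls were lost without replicate 6 (differences of -0.99 and -1.77, limma adjusted p = 0.0619 and 0.0585) and without replicate 8 (-0.96 and -1.70, limma adjusted p = 0.0704 and 0.0676), the libraries with high muscle genes. Without both, 1 library of 3day nt remained and the differences were -0.78 and -1.55.

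The chains of I-A and I-E lay lower in all 4 PBS libraries than in all 3 of 3day nt. H2-Aa stood at 0.32, 1.49, 1.66 and -0.63 in PBS and at 2.15, 1.94 and 2.29 in 3day nt. H2-Ab1 stood at 0.38, 1.42, 1.52 and -0.43 in PBS and at 2.25, 2.02 and 2.40 in 3day nt. H2-Eb1 stood at 0.43, 1.60, 1.75 and -0.49 in PBS and at 2.16, 1.99 and 2.49 in 3day nt. Replicates 2 and 5 were the low libraries of PBS, and 3day nt was narrow beside them. The differences were -1.42 ± 0.56 (SE) for H2-Aa, -1.51 ± 0.49 for H2-Ab1 and -1.39 ± 0.55 for H2-Eb1, with limma adjusted p-values of 0.0903, 0.0523 and 0.0937. The libraries did not overlap for 5 of 7 genes, all lower in PBS, against 23.8% of all genes that did not overlap and were lower in PBS.

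Cd74 and Ciita overlapped between the 2 groups. Cd74 stood at 0.56, 1.49, 1.53 and -0.15 in PBS and at 1.33, 1.33 and 1.70 in 3day nt, a difference of -0.60 ± 0.43 (SE; limma adjusted p = 0.306). Ciita stood at 1.02, 1.92, 1.87 and 1.02 in PBS and at 1.5, 1.77 and 1.67 in 3day nt. Its difference was -0.19 ± 0.28 (SE; limma adjusted p = 0.621), and it was 0.088 after quantile normalization. The library of 2208L with the prefix ROSEN stood at 0.60 for Ciita, the lowest of the 8, and between the lowest and highest PBS libraries for the 6 class II genes. In the smallest groups the test is limited: 4 against 3 libraries cannot go below an exact p of 0.0571.

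Subtracting the Ciita value from that of a class II gene in the same library gives a quantity that does not move with the scale of the library. In 2151R against 2208L, H2-DMa differed on this measure, at 0.05 ± 0.33 (SD, n = 4) against -1.20 ± 0.57 (SD, n = 8). The difference of 1.25 had the smallest exact permutation p of 0.00404 (0.0485 after Benjamini-Hochberg adjustment over 12 tests, two-sided). Relative to Ciita, 60.6% of all genes were higher in 2151R without overlap, so the call is no result particular to H2-DMa. The adjusted p was 0.0727 to 0.114 when any 1 of the 12 libraries was left out, with differences of 1.09 to 1.35. Fewer libraries also raise the smallest p the design allows. The other 5 genes differed by -0.55 to -0.22 on this measure, with adjusted exact p-values of 0.286 to 0.598.

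In PBS against 3day nt, 5 of 6 class II genes relative to Ciita were lower in every PBS library than in every 3day nt library, where 6.61% of all genes relative to Ciita were lower in PBS without overlap and 28.4% did not overlap in either direction. For H2-DMb1 minus Ciita the PBS mean was -0.64 ± 0.37 (SD, n = 4), against 0.97 ± 0.32 (SD, n = 3) for 3day nt. H2-Ab1 minus Ciita was -0.74 ± 0.49 (SD, n = 4) and 0.58 ± 0.28 (SD, n = 3). Each of the 5 had the smallest exact permutation p of 0.0571 (adjusted 0.114), and none of the 6 passed at an unadjusted or adjusted 0.05. The exception in overlap was Cd74, which differed by -0.41 relative to Ciita (exact permutation p = 0.114). On the same measure H2-Ab1 stood at 0.95 and 1.10 in the 2 libraries of 2225L, from -0.69 to -0.03 in 2151R and from -1.46 to 0.75 in 2208L.

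**Figure D3:**
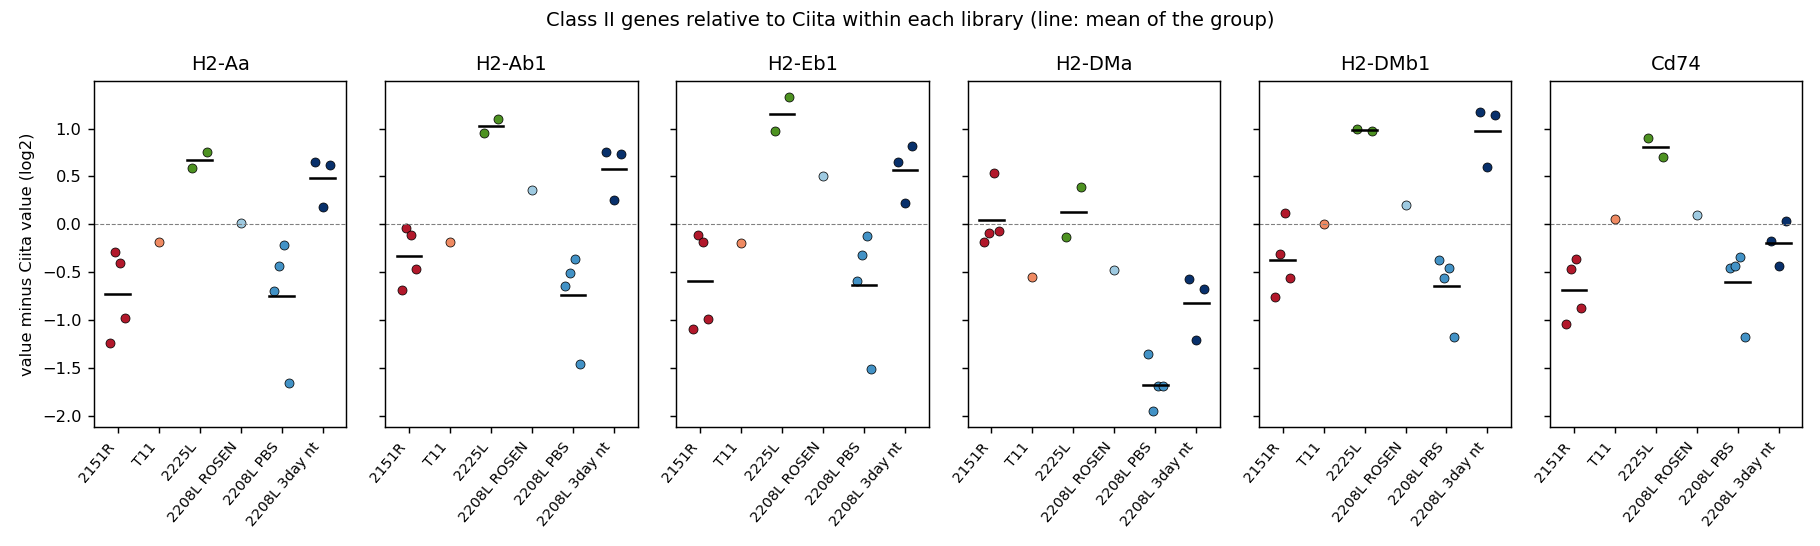
Value of each class II gene minus the Ciita value of the same library (y axis, log2) by group (x axis); points are libraries and lines are group means. H2-DMa lay lower in 2208L PBS than in any other group, at -1.67 on average, and 5 of 6 genes separate PBS from 3day nt.

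The order of the group means was shared by most members. For H2-Aa, H2-Ab1, H2-Eb1 and H2-DMb1, 2208L 3day nt was highest, T11 came next, 2225L was next to last and 2151R was lowest. Cd74 had T11 first and 3day nt next, and again 2151R last. H2-DMa and Ciita had T11 first and 2225L last. The 2 lowest groups were 2151R and 2225L for all 7 genes, and they overlapped for each of the 7. Neighbouring T11 and 3day nt did not overlap for 6 of 7 genes and did for Ciita, where the 1 library of T11 lay outside the range of 3day nt for 84.9% of all genes.

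Likeness between members was measured as the root mean square deviation over the 15 libraries, after each gene was centred on its mean. H2-Aa and H2-Eb1 were the closest pair, at 0.17, and H2-Aa and H2-Ab1 lay at 0.20. Cd74 lay 0.35 to 0.36 from the chains of I-A and I-E. Ciita lay 0.69 to 0.78 from the same 3 chains and 0.55 from Cd74, and H2-DMa lay 0.72 to 0.87 from the other members.

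Outside the members, the gene nearest to the mean of the 6 class II genes was H2-Ea, the I-E alpha chain, at 0.20, followed by H2-DMb2 at 0.31. H2-DMb2 can share reads with H2-DMb1, 1 of the 6, so its nearness is uncertain to that extent. The median over 14876 named genes was 1.25. Next came Scimp at 0.50, an adaptor protein of antigen-presenting cells, then Tagln, Cmc4, Abcg2, Cd72, Slc2a10, Slamf9 and, at 0.56, Psmb8, a subunit of the immunoproteasome. The 5 genes nearest to Ciita were Adgrg5 at 0.38, Ipcef1 at 0.39, Sec16b at 0.43, Fam149a at 0.48 and Scimp at 0.48. With Pearson correlation as the measure, 2 of the 10 genes nearest to the class II mean were shared.

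Of 3 further class II chains measured, H2-Ea and H2-DMb2 were lower in 2151R than in 2208L, at differences of -1.98 ± 0.46 (SE) and -1.30 ± 0.39 (SE), with limma adjusted p-values of 0.00296 and 0.0131. H2-Ob, a chain of H2-O, which restrains H2-M, did not pass (0.31 ± 0.70, SE, limma adjusted p = 0.737). H2-DMb2 was also lower in PBS than in 3day nt, differing by -1.25 ± 0.35 (SE; limma adjusted p = 0.0355). Because it can share reads with H2-DMb1, it is not a fully separate measurement. H2-Ea stood at 1.99 in T11.

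Among 10 factors of class II promoters, 3 were lower in 2151R than in 2208L and 1 was higher, below the 48.8% of all genes called. Rfxap, a subunit of the RFX complex, was lower, differing by -1.38 ± 0.15 (SE; limma adjusted p = 7e-06) and Rfxank, another subunit, at -0.61 ± 0.10 (SE; limma adjusted p = 0.00021). Rfx5, the third subunit, differed by 0.08 ± 0.20 (SE). Ep300, a histone acetyltransferase, was higher by 1.30 ± 0.28 (SE; limma adjusted p = 0.00177). Between PBS and 3day nt, 1 of the 10, Ep300, passed, higher in PBS by 0.82 ± 0.15 (SE; limma adjusted p = 0.0097), below the 34.0% of all genes called.

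Among 10 genes of class II antigen processing, 4 were higher and 1 was lower in 2151R than in 2208L, near the 48.8% of all genes called, with a median difference of 0.29. The cathepsin gene Ctsl was higher by 1.70 ± 0.27 (SE; limma adjusted p = 0.000157). In PBS 3 of the 10 were lower than in 3day nt, among them Ifi30, the lysosomal thiol reductase, differing by -0.85 ± 0.20 (SE; limma adjusted p = 0.0191), and Ctss, the protease that trims Cd74, at -0.64 ± 0.18 (SE; limma adjusted p = 0.0347). No gene of the list was higher in PBS. The 3 calls were near the 34.0% of all genes called in either direction, where 16.5% were lower in PBS.

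In 2151R, 4 of 10 interferon gamma pathway genes were above 2208L and 1 was below, near the 48.8% of all genes called. Of 13 interferon gamma-induced genes, 2 were higher and 5 were lower, also near the 48.8% of all genes called, with a median difference of -0.54. Gbp7 was higher by 1.195 ± 0.221 (SE; limma adjusted p = 0.000573) and Gbp2 by 1.04 ± 0.15 (SE; limma adjusted p = 5.96e-05). The chemokine genes Cxcl11 and Cxcl10 were lower, differing by -2.74 ± 0.60 (SE; limma adjusted p = 0.00196) and -1.88 ± 0.49 (SE; limma adjusted p = 0.00647). In 2225L against 2208L, 12 of the 13 induced genes were lower, with a median of -2.29, where 17.3% of all genes were lower. In PBS against 3day nt, 2 of the 13 were lower, Cxcl10 and Cxcl11, and the median was -0.03. That count was near the 16.5% of all genes lower in PBS. In 2151R, 2 of 6 co-stimulatory genes were above 2208L and none was below, where 26.1% of all genes were higher. In PBS 1 of the 6, Cd40, was lower than in 3day nt, near the 16.5% of all genes. It differed by -0.996 ± 0.153 (SE; limma adjusted p = 0.00641).

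The class I presentation genes split in 2151R. There 4 of 10 were lower than in 2208L and 1 was higher, near the 48.8% of all genes called. Psmb8 was lower, differing by -1.62 ± 0.31 (SE; limma adjusted p = 0.000768). B2m was higher by 1.02 ± 0.17 (SE; limma adjusted p = 0.000309). The class I chain genes H2-K1 (0.01 ± 0.35, SE) and H2-D1 (-0.28 ± 0.39, SE) did not pass. In PBS, 8 of 10 were lower than in 3day nt and none was higher, with a median difference of -0.81. Of all genes, 16.5% were lower in PBS and 17.4% higher.

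Markers of the cells that usually carry class II were compared in the same way. In 2151R against 2208L, 8 of 14 macrophage genes were higher and 1, Cd14, was lower, where 26.1% of all genes were higher and 22.7% lower. The mean of that list ran from 0.27 to 0.69 in 2151R and from -0.60 to 0.51 in 2208L. The mean of the 6 class II genes minus the macrophage mean was -1.93 to -1.39 in 2151R and -0.47 to 1.59 in 2208L. Of 14 dendritic cell genes, 3 were higher in 2151R, among them Flt3 (3.16 ± 0.89, SE, limma adjusted p = 0.00968), and 4 were lower, among them the chemokine gene Ccl17 (-3.65 ± 0.86, SE, limma adjusted p = 0.00331). These dendritic cell calls were near the 48.8% of all genes called in either direction. The 6 B cell genes measured did not pass in either direction by limma, and their mean was -0.48 to 0.33 in 2151R and -1.28 to 0.81 in 2208L. The part of macrophages, dendritic cells and B cells in the result was not tested.

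In PBS against 3day nt, part of the dendritic cell list moved with the class II chains. Of 14 genes, 8 were lower in PBS and 1, Fscn1, was higher, where 16.5% of all genes were lower and 17.4% higher. Among the 5 that did not pass were Zbtb46 (-0.02 ± 0.14, SE), Itgax (0.20 ± 0.19, SE) and Wdfy4 (-0.16 ± 0.34, SE). Cd209a, a lectin of monocyte-derived dendritic cells, differed by -5.01 ± 1.34 (SE; limma adjusted p = 0.0301) and Siglech, a marker of plasmacytoid dendritic cells, by -3.39 ± 0.82 (SE; limma adjusted p = 0.0222). The mean of the list was -1.39 to 0.45 in PBS and 0.95 to 1.89 in 3day nt, without overlap. The class II mean minus the dendritic cell mean was 0.21 to 1.59 in PBS and -0.45 to 0.70 in 3day nt, which overlapped. Of 6 B cell genes, 2 were lower in PBS (Fcrla and Cd79a), and the list mean was -0.81 to -0.33 in PBS and 0.29 to 0.81 in 3day nt. Of 14 macrophage genes, 2 were lower and 1, Mertk, was higher in PBS. The part of these cells in the result was not tested.

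In 2225L, where Ciita was lowest, 8 of 14 macrophage genes were lower than in 2208L and none was higher, and the list mean was -1.72 and -0.79. In the same comparison 17.3% of all genes were lower, 15.6% were higher and 32.9% differed in either direction. The dendritic cell list had 5 of 14 genes lower and its mean was -1.62 and -0.49, while 2 of 6 B cell genes were higher, Cd79a by 2.38 ± 0.61 (SE; limma adjusted p = 0.00918). Both of these counts were near the share of all genes that differed in either direction. In T11 the macrophage mean was 0.999 and the B cell mean was 1, each the highest of the 15 libraries. The dendritic cell mean of T11 was -0.19, below the 0.06 to 0.60 of 2151R. The part of these cells in the values of these models was not tested.

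**Figure D4:**
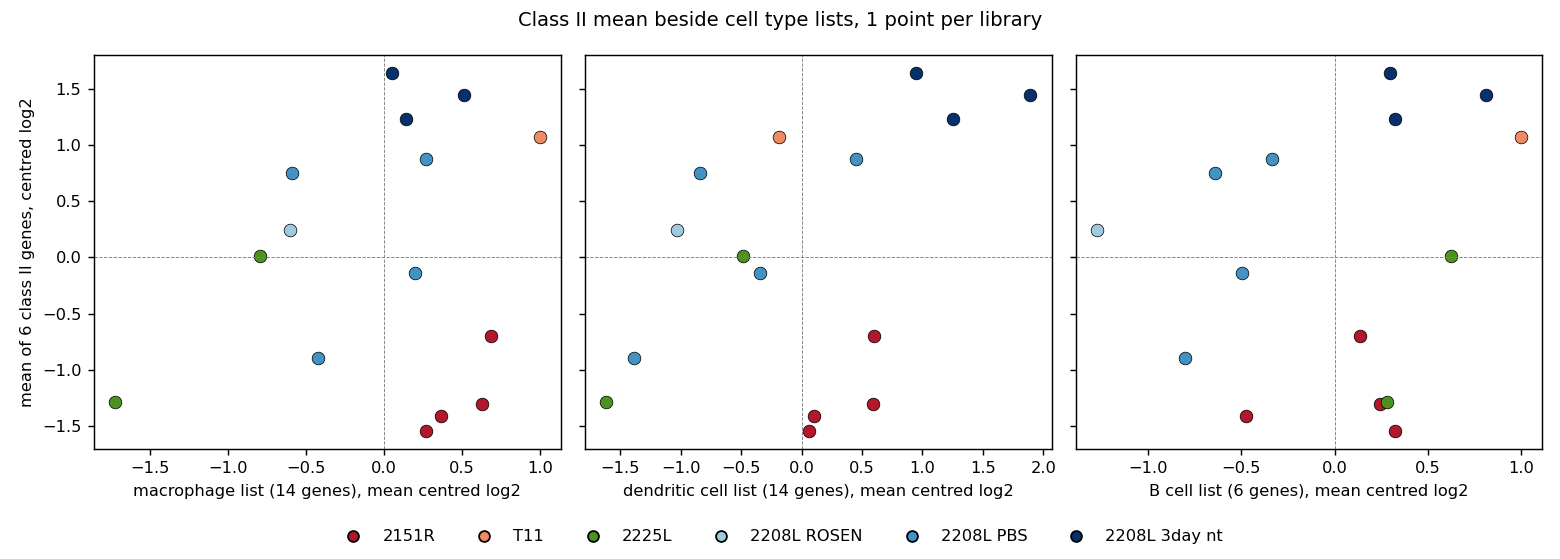
Mean of the 6 class II genes (y axis) against the mean of the macrophage, dendritic cell and B cell lists (x axes), in log2 units after each gene was centred on its mean over the 15 libraries; each point is 1 library. The 2151R libraries combine macrophage means above 0 with class II means of -1.54 to -0.70, and the 3day nt libraries have the highest dendritic cell means.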

How the data were processed

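Bulk tumour RNA was captured by poly(A) and sequenced, per the labels' protocols. The submitters' processing notes name STAR, Salmon and mm10, with no role or version. The deposited values are log2, centred by the authors on a median of each gene, for 17271 genes in 15 libraries. The set of samples behind that median is not given in the sources used here, and without counts the depth is unknown and no counting interval can be given.

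The values were used as deposited. Differences between models were fitted with limma 3.58.1 (R 4.3.3) over all 15 libraries with a mean per model, and PBS against 3day nt on its 7 libraries, with Benjamini-Hochberg adjustment over all 17271 genes and a threshold of 0.05. The fit was tested on simulated data. Of changes of 1 log2 unit, 53% were recovered in 2151R against 2208L and 20% in 2225L against 2208L. The shares were 11% in 2225L against 2151R and 46% in PBS against 3day nt. For changes of 2 units they were 82%, 66%, 51% and 84% in the same order. A gene of 2225L that did not pass can therefore still differ. Exact two-sided permutation tests double the smaller one-sided p, the convention of the SciPy function. This convention replaced one based on the absolute difference of means after those results had been seen, and gives larger p-values.

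The 7 members and 16 gene lists were chosen with earlier results of these data known. The lists cover other class II chains, antigen processing, promoter factors, the interferon gamma pathway, interferon gamma-induced genes, co-stimulation, class I presentation, and markers of dendritic cells, B cells, macrophages, monocytes, T cells, endothelium, epithelium, muscle and fat. Of 157 list genes 147 were measured, and the other 10 are not analysed here. Named were all members, genes among the 2 called list genes with the largest difference in 2151R against 2208L and in PBS against 3day nt, defining markers, and the 10 and 5 nearest genes. Rfx5, Rfxank, H2-Ob, B2m, H2-K1, H2-D1, Gbp2, Gbp7, Zbtb46, Itgax, Wdfy4, Fscn1 and the 2225L value of Cd79a are given beside them. Predicted genes were left out. Alternatives changed the scaling, variance model, sample weights, libraries, low values, call rule, library prefix and the 2208L libraries compared.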

Additional observations from a re-analysis of the deposited data

Results flagged for a closer look

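In all, 4 of 39 groups of 4 to 10 libraries held a value that stood apart from the others by Dixon's criterion. Chance flags about 1 in 20 groups, here 1.95. Some groups share libraries, and 1 value was flagged both in 2208L and in its PBS libraries, so the 4 flags are not independent. H2-Aa in 2151R replicate 2 was -0.29, where the other 3 libraries of 2151R lay between -1.39 and -1.24. H2-DMa minus Ciita in 2151R replicate 3 was 0.54, where the others lay between -0.18 and -0.07. That library also has high muscle genes, whose part in the value was not tested. Cd74 minus Ciita in 2208L replicate 5, titled PBS, was -1.17. It stood apart both from the other 7 libraries of 2208L, at -0.46 to 0.10, and from the other 3 of PBS, at -0.46 to -0.34.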

How the results depend on the processing

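Of 696 values recomputed, 615 kept their direction and their side of the threshold, 55 lost a call, 23 gained one, 2 changed sign and 1 moved. Against 2208L, 6 genes were called in 2151R with every library left out in turn (range 6 to 6). For 2225L the count of 2 called genes became 1 with sample weights, without the muscle-rich libraries, with the library prefix in the fit and against PBS alone, and 7 against 3day nt alone. It ranged from 1 to 6 with 1 library left out (6 without 2208L replicate 5, and 1 without 2225L replicate 1 or 2208L replicates 3, 4, 6, 7 or 8). For PBS against 3day nt, the 2 calls became 5 with sample weights and 0 without the muscle-rich libraries, and ranged from 0 to 3 with 1 library left out (0 without replicate 6 or 8). H2-Ab1, which missed the threshold there, passed under 7 alternatives, with -1.44 after median centring. With 1 library left in a group, it is assumed to vary like the others. Relative to Ciita, the 1 call between 2151R and 2208L became 0 without the muscle-rich libraries and 0 with any library left out. Both sign changes were in values that did not pass: Ciita in PBS against 3day nt was 0.088 after quantile normalization, and H2-DMa in 2225L against 2151R was 0.27 without 2225L replicate 1, in a range of -1.39 to 0.27 with 1 library left out. The cause was not tested. No paired analysis was possible because replicate numbers are absent from the titles.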

Other observations

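In 2151R against 2208L, 6 of 8 endothelial genes were higher and none was lower, among them Tek, a receptor of blood vessel endothelium, by 1.52 ± 0.43 (SE; limma adjusted p = 0.00998). Over all genes, 26.1% were higher in 2151R, 22.7% were lower and 48.8% differed in either direction. Of 10 T cell genes 2 were higher (Cd28 and Cd4), of 6 monocyte genes 1 was higher (Vcan, by 4.15 ± 0.38, SE, limma adjusted p = 1.08e-06), and of 7 adipocyte genes 3 were higher, with none lower in these 3 lists. The T cell and monocyte counts lay below the share of all genes that were higher. The adipocyte count was near the share that differed in either direction. All 10 epithelial genes were lower and none of the 10 muscle genes passed limma's threshold.

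In PBS against 3day nt, 3 of 10 T cell genes were lower in PBS and none was higher, with Cd2 lower, differing by -2.81 ± 0.60 (SE; limma adjusted p = 0.0148). Over all genes, 16.5% were lower in PBS, 17.4% were higher and 34.0% differed in either direction. Of 6 monocyte genes, Ly6c2 was lower, differing by -2.20 ± 0.47 (SE; limma adjusted p = 0.0146) and Fn1 higher by 1.46 ± 0.20 (SE; limma adjusted p = 0.00469). The T cell and monocyte calls were each near the share of all genes that differed in either direction. Of 10 muscle genes 1, Pvalb, was lower, and the median difference of the list was -7.26. The muscle list mean was -4.47 to 1.77 in PBS and 0.39 to 9.08 in 3day nt. None of the 7 adipocyte genes passed, with a median difference of -4.73. Their mean was -4.475 to 1.874 in PBS and 1.33 to 1.77 in 3day nt. The part of muscle and fat in the other differences was not tested.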
